A study of Macaca fascicularis with 6 samples.

Results

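The 5 aquaporin genes AQP1, AQP3, AQP4, AQP5 and AQP9 were followed across the cell types of the lung in 6 cynomolgus monkeys. They were found by symbol among the 28623 rows of each gene list, where each symbol occurs once (AQP1 is ENSMFAG00000002279, AQP3 ENSMFAG00000043420, AQP4 ENSMFAG00000041146, AQP5 ENSMFAG00000032827 and AQP9 ENSMFAG00000039733). The 6 monkeys were males of 3 to 5 years and no genetic alteration is named for them. The 3 asthma monkeys (replicates 8, 10 and 11) were sensitized to and then challenged with antigen of the roundworm Ascaris suum, first under the skin with adjuvant and then through the nose, and the 3 control monkeys (replicates 1, 2 and 3) received saline. Lung tissue was digested to a cell suspension and made into 1 droplet-based 3′ library per monkey, in which each captured RNA molecule is counted once by its unique molecular identifier (UMI). The dissociation, the lysis of red cells and the removal of dead cells are steps that can change which cells are captured.

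Aquaporins are small membrane proteins that form a pore for water. AQP1, AQP4 and AQP5 pass mainly water, whereas AQP3 and AQP9 belong to the aquaglyceroporins, which also pass glycerol and, for AQP9, other small solutes. In the mammalian lung AQP1 is known from the vascular endothelium and the pleura, AQP3 from basal cells of the airway, AQP4 from the basolateral membrane of airway cells and from alveolar type I (AT1) cells, AQP5 from the apical membrane of AT1 cells and of gland and secretory cells, and AQP9 from leukocytes. AQP1 was first purified from erythrocytes, so erythrocyte genes were measured beside it.

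The libraries held 40556102, 33210436 and 32240293 UMIs in control replicates 1, 2 and 3 and 41184329, 41489879 and 29014556 UMIs in asthma replicates 8, 10 and 11. Quality control kept 4339, 3200, 3902, 4136, 4620 and 4038 cells in the same order, 24235 of 35133 barcodes. The medians lay between 3835 and 5048.5 UMIs per kept cell. Between 40 and 56 barcodes per library also occurred in another library. Clustering without the aquaporin genes placed 21594 cells in groups named from marker genes, and 1599 cells stayed without a name. A further 1042 cells lay in mixed sub-clusters with markers of more than 1 class, of which 26.7% were scored as doublets against 1.59% of the named cells. Names end in -like because they come from markers. Levels are given as CPM, the UMIs of a gene scaled to a fixed total, of the cells summed within a library, and a library was used for a cell group when it held at least 10 of its cells.

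Some libraries stood apart. Control replicate 2 had no secretory-like and 3 basal-like cells, and its mixed sub-clusters held 43.2% of the AQP3 UMIs and 43.8% of the AQP5 UMIs of that library. Control replicate 3 held 92 of the 154 basal-like cells. In controls, 16, 4 and 4 AT1-like cells and 8, 13 and 6 capillary EC-like cells (EC, endothelial cells) were captured in replicates 1, 2 and 3, and other EC-like cells numbered 4, 0 and 3, so that with the filters used none of these 3 groups could be tested between conditions. The 6 listed erythrocyte genes summed to 466 CPM in control replicate 2, led by HBB with 452 CPM, and to between 4.94 and 12.3 CPM in the other 5 libraries.

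Each aquaporin had its own main cell groups, as the plot of levels by cell group shows. AQP1 was highest in endothelial-like, AT1-like and mesothelial-cell-like (MC-like) cells, AQP4 in AT1-like cells, AQP5 in secretory-like and basal-like cells, AQP3 in basal-like cells and AQP9 in granulocyte-like cells. T and NK-like cells, which served as a group that should hold little of any aquaporin, had means of 3.199 CPM of AQP1, 2.93 CPM of AQP3, 0.206 CPM of AQP4, 0.302 CPM of AQP5 and 0.317 CPM of AQP9 over 6 libraries. Among them, a sub-cluster of 115 cells led by S100A9, S100A8 and CFD had a pooled AQP9 level of 16.1 CPM. The cells were grouped on other genes whose levels go with the aquaporins, so levels by cell group are a description without a test.

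**Figure D1:**
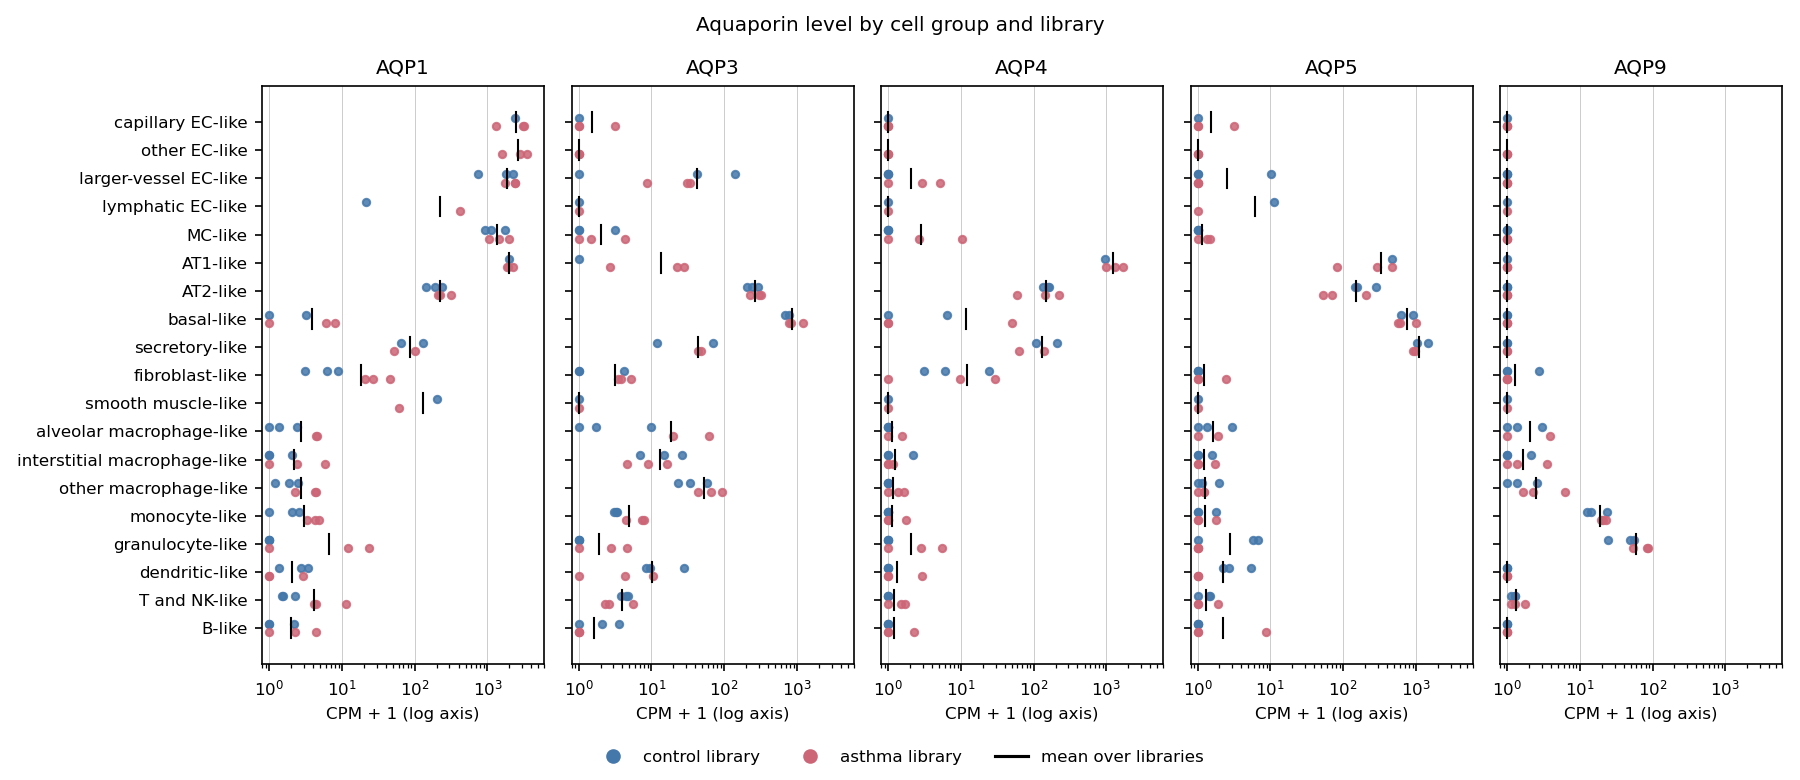
Level of each aquaporin (CPM + 1, logarithmic axis) by cell group, with 1 point per library that held at least 10 cells of the group (blue, control; red, asthma) and a black line at the mean over libraries. AQP1 exceeds 1000 CPM on average in the capillary EC-like, other EC-like, larger-vessel EC-like, MC-like and AT1-like rows, whereas AQP3, AQP4, AQP5 and AQP9 each peak in 1 or 2 rows.

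AQP1, the constitutive water channel of many endothelia, was found throughout the blood vessel endothelium. In other EC-like cells, of which 258 were led by SEMA3G, MCF2L and CD36 and 62 by TMEM88, BEX1 and AKR1B1, AQP1 reached 2644 ± 982 CPM (SD, n = 3, all asthma libraries). In capillary EC-like cells it reached 2493 ± 869 CPM (SD, n = 4) and in larger-vessel EC-like cells 1875 ± 626 CPM (SD, n = 6). AT1-like cells, the flat cells that form the gas exchange surface, had 2005 ± 168 CPM (SD, n = 4), and MC-like cells, which line the pleura, had 1369 ± 409 CPM (SD, n = 6). These 5 groups stood far above lymphatic EC-like cells, with 220 ± 281 CPM (SD, n = 2), and AT2-like cells, with 219 ± 56.0 CPM (SD, n = 6). Among the first 3 places the order was kept in 2 of 3 libraries at each step. AT1-like cells lay above larger-vessel EC-like cells in 2 of 4 libraries, with a difference of -63.2 ± 512 CPM (SD), so these neighbours did not differ beyond their spread. Larger-vessel EC-like cells were above MC-like cells in 5 of 6 libraries, by 506 ± 479 CPM (SD).

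Within the larger vessels AQP1 and AQP3 had opposite patterns. The larger-vessel EC-like cells fell into 154 cells led by TAC1, ACKR1 and INHBA, of which ACKR1 is known from venules, and 165 cells led by BMX, GASK1B and F5, of which BMX is known from arteries. AQP1 in the ACKR1 sub-cluster was 2186, 2475, 2257, 2523, 2852 and 2551 CPM in control replicates 1, 2 and 3 and asthma replicates 8, 10 and 11, a narrow range. In the BMX sub-cluster AQP1 was 591 CPM in control replicate 3 and 855, 1246 and 2154 CPM in asthma replicates 8, 10 and 11, below the ACKR1 sub-cluster in 4 of 4 libraries. AQP3 was 152, 52.9, 12.8 and 78.1 CPM in the BMX sub-cluster of the same 4 libraries and 16.7, 15.1, 5.53 and 0 CPM in their ACKR1 sub-cluster. AQP3 was thus the higher of the pair of sub-clusters in the BMX cells in 4 of 4 libraries. Capillary EC-like cells held AQP3 at a pooled level of 0.920 CPM.

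A UMI of AQP1 was present in 85.4% of 1030 endothelial-like cells (95% exact binomial interval 83.1 to 87.5%), in 89.6% of 270 AT1-like cells (85.4 to 93.0%) and in 95.8% of 623 MC-like cells (93.9 to 97.3%). The share was 0.907% (0.733 to 1.11%) in 10249 T and NK-like cells. Median depths were 3301.5, 3901, 9846 and 3657 UMIs in the same order, and the intervals cover counting error only. With each cell thinned to 1000 UMIs the shares were 71.1%, 81.2%, 61.5% and 0.366%, with 59, 20, 7 and 141 shallower cells left out, and MC-like cells, the deepest of these groups, went from the highest share to the third.

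AQP4, best known as the water channel of astrocyte endfeet, had its highest level in AT1-like cells, with 1244 ± 355 CPM (SD, n = 4). It was 962 CPM in control replicate 1 and 1712, 1325 and 975 CPM in asthma replicates 8, 10 and 11, so the 1 control library that could be read lay just below the asthma libraries. AT2-like cells, which secrete surfactant, had 146 ± 52.6 CPM (SD, n = 6) and secretory-like cells 130 ± 62.0 CPM (SD, n = 4). AT1-like cells were above AT2-like cells in 4 of 4 libraries, by 1100 ± 305 CPM (SD). AT2-like cells were above secretory-like cells in 2 of 4 libraries, a pair that did not differ beyond its spread. Among the named groups with at least 2 libraries, fibroblast-like cells followed with 11.3 ± 11.8 CPM (SD, n = 6). Left out of this order were 58 epithelial-like cells without a subtype name, led by S100A8, FCER1G and AIF1, with a pooled level of 161 CPM, and a sub-cluster of 35 cells led by SCGB3A1, BPIFB1 and VMO1, with 141 CPM pooled and 31.6 CPM in its 1 usable library. Both stay out of the orders below as well, with pooled levels of 161 and 183 CPM of AQP3 and of 82.6 and 221 CPM of AQP5. In endothelial-like cells 2 UMIs of AQP4 were counted in 1030 cells.

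The AT1-like cells were themselves uneven. A sub-cluster of 208 cells led by AGER, UNC13D and COL12A1 had a pooled AQP4 level of 1485 CPM and a UMI of AQP4 in 96.2% of its cells. A second sub-cluster of 62 cells led by NPDC1, TNNC1 and IGFBP5 had 536 CPM and 48.4%. AQP1 was 2235 CPM in the first and 1099 CPM in the second. The second sub-cluster had a median of 1216 UMIs per cell against 4695 in the first, so its shares are not comparable at face value. Of its cells, 1 came from a control library.

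AQP5, the channel of gland and airway secretions, was highest in secretory-like cells, with 1095 ± 244 CPM (SD, n = 4). These 95 cells were led by SCGB3A2, SPINK1 and CYP2A23. AQP5 there was 1454 and 1038 CPM in control replicates 1 and 3 and 969 and 921 CPM in asthma replicates 10 and 11. Both controls lay above both asthma libraries, but the share of all genes that separate in this way is not given here. By edgeR AQP5 was not called in these cells, where 0 of 3831 genes were called. Basal-like cells had 743 ± 204 CPM (SD, n = 5), AT1-like cells 326 ± 183 CPM (SD, n = 4) and AT2-like cells 151 ± 84.6 CPM (SD, n = 6). Each of these steps was kept in 4 of 4 libraries, and asthma replicate 8 held 4 secretory-like cells. A UMI of AQP5 was present in 97.9% of the secretory-like cells (95% exact binomial interval 92.6 to 99.7%), in 92.9% of the basal-like cells (87.6 to 96.4%) and in 38.5% of the AT1-like cells (32.7 to 44.6%), against 0.127% (0.0676 to 0.217%) of T and NK-like cells. In AT1-like cells AQP5 varied between libraries, with 464 CPM in control replicate 1 and 292, 465 and 80.5 CPM in asthma replicates 8, 10 and 11. AQP5 was therefore less evenly present in AT1-like cells than AQP1, whose lowest and highest libraries were 1862 and 2244 CPM.

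AQP3, an aquaglyceroporin of basal epithelia, reached 858 ± 207 CPM (SD, n = 5) in basal-like cells, the progenitors of the airway epithelium, which were led by KRT5, KRT15 and S100A2. It was 693 and 782 CPM in control replicates 1 and 3 and 1218, 775 and 820 CPM in asthma replicates 8, 10 and 11, and the groups overlapped. A UMI of AQP3 was present in 97.4% of 154 basal-like cells (95% exact binomial interval 93.5 to 99.3%), against 0.859% (0.689 to 1.06%) of T and NK-like cells. AT2-like cells had 263 ± 44.5 CPM (SD, n = 6), with 207, 286 and 242 CPM in the controls and 317, 224 and 300.03 CPM in the asthma libraries. Basal-like cells were above AT2-like cells in 5 of 5 libraries, and AT2-like cells were above other macrophage-like cells, with 52.2 ± 25.2 CPM (SD, n = 6), in 6 of 6. In AT1-like cells 13 UMIs of AQP3 were counted, a pooled level of 10.7 CPM. Basal-like cells in turn had 10.9 ± 21.5 CPM of AQP4 (SD, n = 5), whereas AT2-like cells came second for both genes.

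AQP3 was also found in part of the macrophage class. Of its sub-clusters, 1 group of 402 cells had AQP3 as the first of the 10 genes that led it against the other cells of the class, although AQP3 took no part in the clustering. SERPINB10, QPCT, AREG and IL1B followed, of which IL1B encodes the cytokine interleukin 1 beta and AREG the growth factor amphiregulin. It was singled out after its values were seen. None of the 10 genes is on the macrophage list and 1 of them, VCAN, is on the monocyte list. SERPINB10, QPCT and IL1B were also among the leading genes of monocyte-like sub-clusters. The 10 macrophage markers summed to 15943 CPM in the AQP3-led sub-cluster, to 27566 CPM in the other cells of the class and to 223 CPM in monocyte-like cells. APOE alone made up 11830, 15202 and 80.2 CPM of these sums. All 10 markers were higher in the sub-cluster than in monocyte-like cells but lower than in the other cells of the class. FABP4, a marker of this list, was at 45.1 CPM in the sub-cluster and at 1696 CPM in the other cells of the class. The 10 monocyte markers in the files summed to 2313, 2280 and 3953 CPM in the same order, and 6 of them, VCAN among these, were higher in the sub-cluster than in the other cells of the class. VCAN was at 150 CPM (149.7), 47.3 CPM and 1811 CPM. AQP3 in this sub-cluster was 106, 119 and 182 CPM in control replicates 1, 2 and 3 and 295, 108 and 101 CPM in asthma replicates 8, 10 and 11, a mean of 152 ± 76.3 CPM (SD, n = 6). The sub-cluster held between 19 and 157 cells in each of the 6 libraries, and 55.0% of its cells had a UMI of AQP3 at a median depth of 13051 UMIs. Other sub-clusters held AQP3 as well. A sub-cluster of 358 cells led by FAM9C, HSD17B5 and QSOX1 had a pooled level of 63.6 CPM at a median of 23826 UMIs. Of these cells 299 came from asthma replicate 8, with 64.2 CPM, while control replicates 1, 2 and 3 had 7.13, 68.4 and 7.89 CPM. A sub-cluster of 192 cells led by CCL17, JAML and CLEC10A had 56.6 CPM when pooled and between 14.6 and 261 CPM by library. Interstitial macrophage-like cells had 12.01 ± 7.85 CPM of AQP3 (SD, n = 6).

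AQP9, the aquaglyceroporin of leukocytes, was sparse, with 390 UMIs in all kept cells. Granulocyte-like cells, with CSF3R and CXCR1 among their leading genes, had the highest level, 57.8 ± 23.1 CPM (SD, n = 6). It was 23.4, 48.4 and 54.1 CPM in the controls and 82.6, 53.1 and 85.1 CPM in the asthma libraries, and the groups overlapped at asthma replicate 10. Monocyte-like cells had 17.9 ± 4.68 CPM (SD, n = 6), below granulocyte-like cells in 6 of 6 libraries by 39.9 ± 20.2 CPM (SD). A UMI of AQP9 was present in 5.54% of 1644 granulocyte-like cells (95% exact binomial interval 4.48 to 6.75%) at a median of 1004.5 UMIs and in 12.7% of 935 monocyte-like cells (10.7 to 15.03%) at a median of 7687 UMIs. This order goes against the CPM, so no order was read from the shares. With each cell thinned to 1000 UMIs they were 4.65% and 1.71%, with 805 and 1 shallower cells left out. T and NK-like cells had 0.0976% (0.0468 to 0.179%). In 360 AT2-like and 270 AT1-like cells no UMI of AQP9 was counted. Taking a count of 0 to allow 3 counts gives shares of up to 0.833% and 1.11% of cells with a UMI. The 95% exact binomial intervals reach 1.02% and 1.36%.

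Several aquaporins occurred in the same cells. At least 2 of AQP1, AQP3, AQP4 and AQP5 had a UMI in 81.9% of AT1-like, 79.7% of AT2-like, 91.6% of basal-like and 76.8% of secretory-like cells. The pairs differed by cell group. In AT1-like cells AQP1 and AQP4 were found together in 216 of 270 cells. In basal-like cells AQP3 and AQP5 were found together in 140 of 154 cells, and 4 basal-like cells had a UMI of AQP1. In AT2-like cells AQP1 and AQP3 were found together in 225 of 360 cells. Of the secretory-like cells, 55 of 95 held both AQP4 and AQP5. The single shares lay close to the paired ones. AQP4 was found in 89.3% of AT1-like cells with AQP1 and in 85.2% of all AT1-like cells. AQP3 was found in 81.8% of AT2-like cells with AQP1 and in 76.9% of all AT2-like cells. Cells of 1 library share their source, and deeper cells show more genes, so these counts are a description.

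The genes most alike each aquaporin were taken over 155 sums of 32 cell groups and 6 libraries, by the Pearson correlation of log2(CPM + 10) without a test. The sums overlap, since classes contain their subtypes, and sums of 1 library share its depth. For AQP1 these were C1orf115 (r = 0.93), NPR1 (0.90), CAV2 (0.90), CAV1 (0.90) and AFDN (0.89), of which CAV1 and CAV2 encode caveolins and NPR1 a natriuretic peptide receptor. For AQP4 these were CLDN18 (0.95), ITGB6 (0.95), KRT7 (0.95), RAB17 (0.94) and GPRC5A (0.93), with CLDN18 encoding a claudin of alveolar tight junctions. For AQP5 these were OVOL2 (0.98), RAB25 (0.97), ELF3 (0.97), TMPRSS2 (0.96) and ESRP1 (0.96), of which OVOL2, ELF3 and ESRP1 are regulators of epithelial genes. For AQP3 the values were lower, with FOXA1 (0.80), EHF (0.79), HAS3 (0.79) and TNS4 (0.78). For AQP9 these were NFE2 (0.92), NAIP (0.91), MEFV (0.88), OSM (0.85) and NLRP12 (0.85), genes known from myeloid cells.

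Of the UMIs of AQP1 in kept cells, 38.8% lay in endothelial-like cells, 36.1% in MC-like cells and 11.6% in AT1-like cells. The split differed between libraries, as the stacked bars of UMI shares show. Endothelial-like cells held 34.9, 23.4 and 40.0% of the AQP1 UMIs of control replicates 1, 2 and 3 and 24.2, 38.9 and 64.6% of asthma replicates 8, 10 and 11. MC-like cells held 8.74% in asthma replicate 11 and between 25.3 and 47.4% in the other 5 libraries. For AQP4, AT1-like cells held 25.8, 42.1 and 11.5% of the UMIs in controls and 83.4, 51.4 and 62.0% in asthma libraries, and the groups did not overlap. Pooled over libraries AQP5 lay for 38.0% in secretory-like and for 27.5% in basal-like cells, but the split varied between libraries. Secretory-like cells held 60.3, 0 and 20.3% of it in controls and 12.5, 45.1 and 50.9% in asthma libraries. Basal-like cells held 60.5% in control replicate 3 and between 9.19 and 30.5% elsewhere, and in asthma replicate 8 AT1-like cells held the most, 40.9%. With at least 200 genes per cell and no maximum the secretory-like share was 2.71%. AQP3 lay, when pooled, for 38.7% in macrophage-like, for 19.3% in basal-like and for 15.9% in AT2-like cells, although macrophage-like cells had a level of only 40.7 ± 21.5 CPM (SD, n = 6). By library the macrophage-like share ranged from 10.3 to 57.5% and the AT2-like share from 2.37 to 33.2%, and basal-like cells held 62.7% in control replicate 3 against 1.16 to 14.8% in the other 5 libraries. The pooled macrophage share was 22.2% when doublets were removed, where cells without a name held 17.0% instead of 4.31%, and 21.2% at a finer clustering, where cells without a name held 9.70% and monocyte-like cells 9.65%. AQP9 lay, when pooled, for 34.4% in monocyte-like, for 25.6% in granulocyte-like and for 21.8% in macrophage-like cells. Monocyte-like cells held 42.3, 39.7 and 52.7% of it in controls and 8.89, 12.5 and 50.4% in asthma libraries. Granulocyte-like cells held the most in asthma replicate 10, with 60.4%, and macrophage-like cells in asthma replicate 8, with 53.3%.

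**Figure D2:**
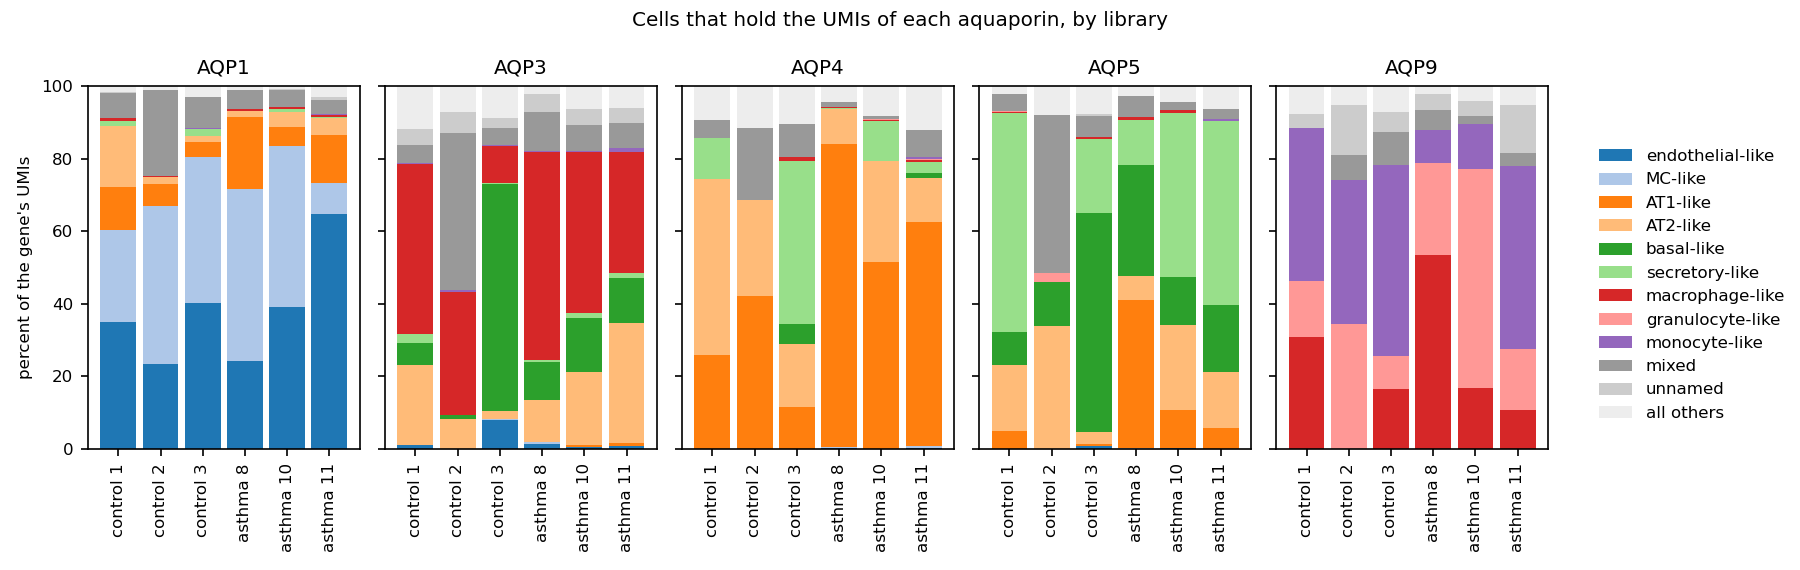
Percent of the UMIs of each aquaporin in kept cells of a library that lay in each cell group, as stacked bars that add to 100% (1 bar per library, controls first). AT1-like cells take 51.4 to 83.4% of AQP4 in the asthma bars and 11.5 to 42.1% in the control bars.

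The level over all kept cells of a library was compared first, a measure that holds both the mix of cells and the level within each cell group. AQP1 was 43.6, 63.0 and 47.4 CPM in control replicates 1, 2 and 3 and 218, 205 and 188 CPM in asthma replicates 8, 10 and 11. Every asthma library lay above every control library, with a mean of 203 ± 15.1 CPM (SD, n = 3) against 51.3 ± 10.3 CPM (SD, n = 3), a 3.96-fold difference. AQP1 was up-regulated in asthma with a log2 fold change of 1.84 ± 0.18 (SE; edgeR quasi-likelihood test, adjusted p = 0.0351). Of 14306 genes tested, 12 or 0.0839% were called, all of them higher in asthma, and AQP1 was 1 of them. By DESeq2 490 genes were called higher, AQP1 among them, and 157 lower. Among the 12 were the capillary EC markers RAMP3 (4.26 ± 0.28) and ADGRL2 (2.65 ± 0.15) and AFDN (1.24 ± 0.13), which encodes the junction protein afadin. In the fits without 1 library 0 to 11 genes were called in all, with 0 without control replicate 1 and without asthma replicate 10. The AQP1 call did not hold in most of these fits. Leaving out control replicate 1 gave an adjusted p of 0.153, control replicate 3 gave 0.0681, asthma replicate 8 gave 0.141, asthma replicate 10 gave 0.158 and asthma replicate 11 gave 0.0829, with log2 fold changes between 1.73 and 2.03 over the 6 fits.

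AQP4 was 9.76, 4.92 and 3.17 CPM in control replicates 1, 2 and 3 and 39.6, 14.6 and 20.01 CPM in asthma replicates 8, 10 and 11. The groups did not overlap and the means differed 4.15-fold. The log2 fold change was 1.85 ± 0.54 (SE) with an adjusted p of 0.261 by edgeR, so AQP4 was not called. Quality control left out 60.3% of the AQP4 UMIs of control replicate 3, against 8.01 to 19.1% in the other libraries. Over all deposited barcodes AQP4 was 10.1, 4.46 and 6.79 CPM in controls and 31.5, 12.7 and 21.6 CPM in asthma libraries. DESeq2 gave 1.86 ± 0.53 with an adjusted p of 0.0146, where it called 647 genes. In the edgeR fit 1845 of 14306 genes had an unadjusted p under 0.05. The share of all genes whose groups did not overlap is not given here. AQP3 (log2 fold change 0.11 ± 0.17, adjusted p = 0.835), AQP5 (-0.26 ± 0.69, 0.911) and AQP9 (0.66 ± 0.53, 0.653) were not called by edgeR and their groups overlapped, and AQP3 and AQP5 turned in direction in fits without 1 library. AQP5 spread most within the controls, with 24.9, 3.62 and 34.7 CPM in replicates 1, 2 and 3, and control replicate 2 was the library without secretory-like cells.

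**Figure D3:**
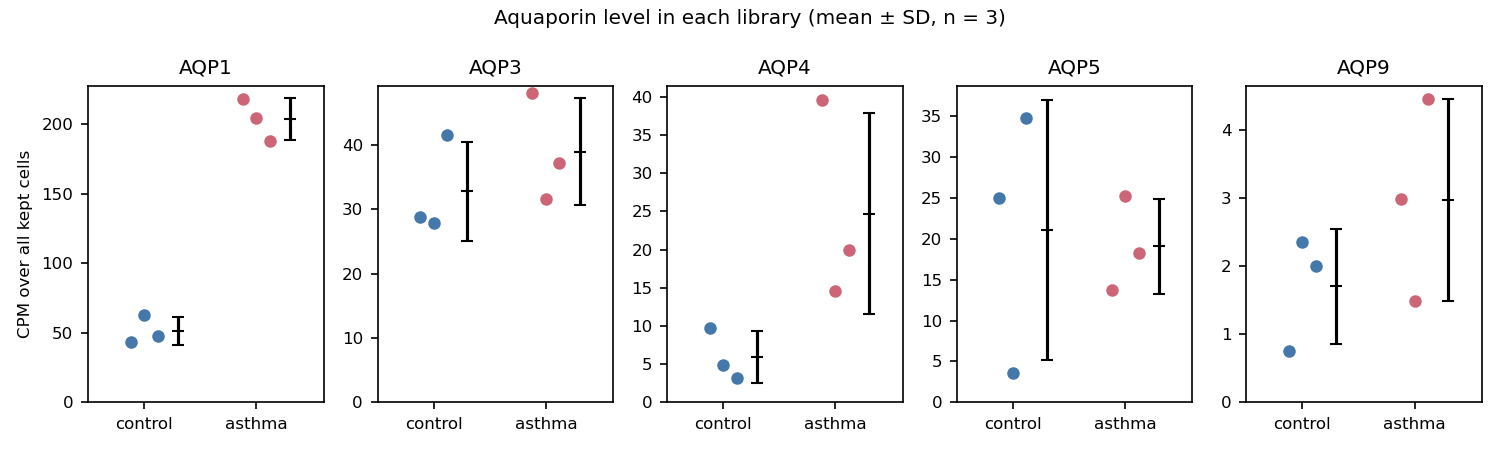
Level of each aquaporin over all kept cells (CPM, linear axis from 0) in each library, with the mean and SD of 3 libraries beside the points. The control and asthma points of AQP1 and AQP4 do not overlap, whereas those of AQP3, AQP5 and AQP9 do. The share of all genes whose points do not overlap is not given here.

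The mix of cells moved with these levels. Endothelial-like cells made up 1.06, 1.13 and 2.69% of the kept cells of control replicates 1, 2 and 3 and 6.29, 5.13 and 8.57% of asthma replicates 8, 10 and 11. The means were 1.63% ± 0.923 and 6.66% ± 1.75 (SD, n = 3 each), and the groups did not overlap (exact two-sided permutation test over libraries, p = 0.1, which is the lowest value possible with 3 against 3, and 0.3 adjusted over 12 cell groups). Capillary EC-like cells were 0.248% ± 0.138 of control and 2.52% ± 0.155 of asthma cells, other EC-like cells were 0.0564% ± 0.0494 and 2.51% ± 1.72, and AT1-like cells were 0.199% ± 0.148 and 1.97% ± 0.961 (SD, n = 3 each, exact permutation p = 0.1 and adjusted p = 0.3 for each of them), differences that this test cannot call at this number of monkeys. MC-like cells, the other large source of AQP1, were 0.714, 1.44 and 1.26% of control cells and 6.46, 4.33 and 0.743% of asthma cells, and the groups overlapped at asthma replicate 11 (exact permutation p = 0.3, adjusted p = 0.6). Over all kept cells, fewer cells of a type and less RNA per cell cannot be told apart, and the part of the mix of cells in the AQP1 and AQP4 levels was not tested. The other groups among the 12 overlapped, AT2-like cells among them. Larger-vessel EC-like cells were 1.13% ± 0.933 of control and 1.48% ± 0.425 of asthma cells (SD, n = 3 each, exact permutation p = 0.6). Outside the 12, B-like, dendritic-like, NK-like and proliferating T and NK-like cells were lower in asthma without overlap (exact permutation p = 0.1 for each). Epithelial-like and pericyte-like cells were higher in asthma, also without overlap. Whether the tissue or the dissociation set these shares was not tested.

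**Figure D4:**
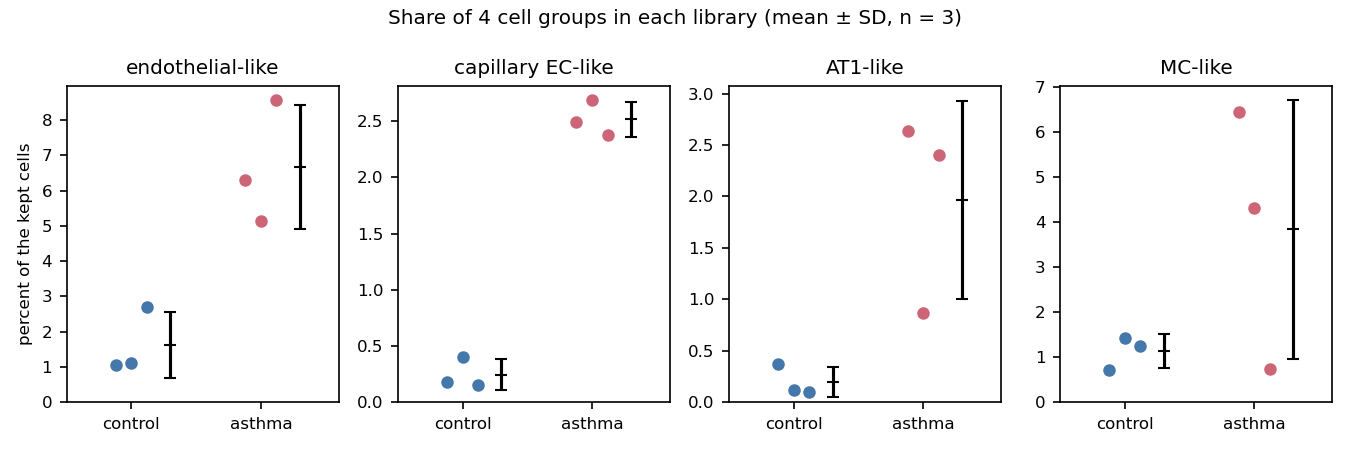
Endothelial-like, capillary EC-like, AT1-like and MC-like cells as a percent of the kept cells (linear axis from 0) in each library (blue, control; red, asthma), with the mean and SD of 3 libraries beside the points. The control and asthma points do not overlap except for MC-like cells, where asthma replicate 11 lies at 0.743%.

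Within cell groups edgeR called no aquaporin with the settings used, whereas DESeq2 called 2 and edgeR without the filter on low counts 5. The DESeq2 calls were in T and NK-like cells, where 23 genes were higher and 52 lower of 10483, and in fibroblast-like cells, with 34 and 44 of 6694. Without the filter, AQP3 was called in endothelial-like cells, where 507 genes were higher and 526 lower of 15202. The 5 genes gave 30 tests in 16 cell groups, of which 6 had an unadjusted p under 0.05. These were AQP3 in endothelial-like cells, where 1747 of 7837 genes had such a p, and in alveolar macrophage-like cells (424 of 7593), and AQP1 in T and NK-like (711 of 10483), macrophage-like (541 of 10478), fibroblast-like (656 of 6694) and other stromal cells (769 of 7150). In endothelial-like cells AQP1 was 1679, 1673 and 682 CPM in control replicates 1, 2 and 3 and 1499, 2771 and 2982 CPM in asthma replicates 8, 10 and 11, and the groups overlapped. The log2 fold change was 0.65 ± 0.36 (SE) with an adjusted p of 0.318 (edgeR). In these cells 405 of 7837 genes tested, or 5.17%, were called, with 184 higher and 221 lower in asthma. That number depended on the library left out, with 67 genes without control replicate 1, 39 without control replicate 3, 31 without asthma replicate 10 and 56 without asthma replicate 11. It was 374 without control replicate 2 and 394 without asthma replicate 8. Of the 9 capillary EC markers 8 were tested and 4 were up-regulated, with a median log2 fold change of 2.29, and of the 10 larger-vessel EC markers 8 were tested and 2 were downregulated, with a median of -1.17 and a range from -1.65 to 2.92. Their part in the AQP1 value was not tested. In control replicate 3, the lowest library, 74 of 105 endothelial-like cells were of the BMX sub-cluster.

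In larger-vessel EC-like cells AQP1 had a log2 fold change of 0.37 ± 0.35 (SE, adjusted p = 0.827, 0.0264% of genes called by edgeR). In MC-like cells AQP1 was 921, 1732 and 1130.2 CPM in controls and 1052, 1422 and 1957 CPM in asthma libraries, with a log2 fold change of 0.11 ± 0.30 (SE, adjusted p above 0.999, 0.037% of genes called). The CPM levels of MC-like cells thus overlapped widely, and the fold change lay between -0.13 and 0.46 in the fits without 1 library. In capillary EC-like cells, which had 1 usable control library with the filters used, AQP1 was 2375 CPM in control replicate 2 and 1308, 3101 and 3186 CPM in asthma replicates 8, 10 and 11. With at least 200 genes per cell and no maximum, where 2 control libraries could be used, its log2 fold change was 0.32 ± 0.34 (SE, adjusted p = 0.814, edgeR), beside a median of 0.38 over the 5756 genes of that fit. In AT1-like cells it was 1990.4 CPM in control replicate 1, inside the range of the asthma libraries.

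In epithelial-like cells AQP1 was 263, 402 and 73.7 CPM in controls and 1041, 363 and 459 CPM in asthma libraries, with a log2 fold change of 1.19 ± 0.63 (SE, adjusted p = 0.696 by edgeR, 0% of 9200 genes called, 616 at an unadjusted p under 0.05, and 4 higher and 2 lower by DESeq2). AQP4 had 1.15 ± 0.71 (adjusted p = 0.723), AQP3 -0.55 ± 0.32 (0.707) and AQP5 -0.47 ± 0.47 (0.820). None of the markers of the subtypes was called in the same fit. The 8 AT1 markers had a median log2 fold change of 1.23, the 8 basal markers -1.34, the 9 AT2 markers tested 0.10 and the 7 secretory markers tested -0.32. Within AT2-like cells (0.0162% of genes called) AQP1 had 0.32 ± 0.26, AQP3 0.22 ± 0.22, AQP4 -0.16 ± 0.38 and AQP5 -0.72 ± 0.43, with adjusted p between 0.878 and 0.996. Within basal-like cells (0.0396% called) AQP3 had 0.33 ± 0.27 and AQP5 -0.065 ± 0.32, and within secretory-like cells (0% called by edgeR, 177 at an unadjusted p under 0.05 and 1 by DESeq2) AQP5 had -0.45 ± 0.30, AQP4 -0.58 ± 0.41, AQP1 -0.28 ± 0.43 and AQP3 -0.15 ± 0.60, with every adjusted p above 0.9. The directions of AQP4 in AT2-like, of AQP5 in basal-like and of AQP1 and AQP3 in secretory-like cells turned under at least 1 alternative. The fold changes of the pooled epithelium for AQP1 and AQP4 were not seen at the same size within AT2-like or secretory-like cells. The difference between these fits was not tested. AT1-like cells, which held 62.6% of the AQP4 UMIs when pooled, could not be tested between conditions with the filters used.

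AQP3 in endothelial-like cells was 31.9, 0 and 119 CPM in controls and 16.04, 3.23 and 6.77 CPM in asthma libraries, with a log2 fold change of -3.03 ± 0.83 (SE, adjusted p = 0.0640 by edgeR). The control mean rested on replicate 3, where 91 of the 101 control UMIs were counted, and on its BMX sub-cluster. Without control replicate 3 the log2 fold change was -1.22 (adjusted p = 0.601), and without control replicate 2, which had no UMI of AQP3 there, it was -3.44 (adjusted p = 0.0283) and passed the threshold. The range without 1 library was -3.80 to -1.22. In macrophage-like cells AQP3 was 26.2, 39.7 and 17.97 CPM in controls and 76.6, 29.98 and 53.9 CPM in asthma libraries, with a log2 fold change of 0.81 ± 0.39 (adjusted p = 0.913, 0% of 10478 genes called by edgeR, 541 at an unadjusted p under 0.05, and 11 higher and 21 lower by DESeq2), and the groups overlapped. The class was made up of different sub-clusters in different libraries. A sub-cluster led by EREG, FER1L6 and CD69 had 501 of its 507 cells from control replicate 1 and none from asthma libraries, the one led by FAM9C had 299 of 358 from asthma replicate 8, and one led by IFI27, IFIT1 and IFI6 had 261 of 272 from asthma replicate 10. Their part in this value was not tested. Without the sub-cluster led by AQP3, a choice made after the data were seen, it was 20.2, 33.1 and 10.1 CPM in controls and 56.1, 15.7 and 51.6 CPM in asthma libraries, with a log2 fold change of 0.82 ± 0.55 (adjusted p = 0.899). In alveolar macrophage-like cells it was 0.716, 8.995 and 0 CPM in controls and 18.5 and 60.9 CPM in asthma replicates 8 and 11, with a log2 fold change of 3.48 ± 0.81 (adjusted p = 0.463). The groups did not overlap there, but 213 of the 234 asthma UMIs came from replicate 11 and asthma replicate 10 held 3 such cells. The log2 fold change was 2.21 without asthma replicate 11 and 5.87 without control replicate 2 (adjusted p = 0.999 and 0.112), the lowest and highest of the 5 fits without 1 library. AQP3 had -0.79 ± 0.54 (adjusted p = 0.9297) in interstitial macrophage-like cells, which turned to 0.60 without doublets and to 0.59 with aquaporins among the variable genes. It had 0.72 ± 0.38 (0.813) in other macrophage-like and -0.40 ± 0.50 (0.9302) in T and NK-like cells by edgeR.

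AQP9 had a log2 fold change of 0.74 ± 0.40 (SE, adjusted p = 0.999) in granulocyte-like cells and of 0.33 ± 0.34 (adjusted p above 0.999) in monocyte-like cells, where it was -0.17 at the finer clustering. By edgeR 0% of 3036 and 0% of 6712 genes were called in these groups, with 108 and 289 at an unadjusted p under 0.05 and 1 in each called by DESeq2. In macrophage-like cells AQP9 had 1.83 ± 0.99 (adjusted p = 0.913). The 100 AQP9 UMIs of granulocyte-like cells limit the precision of the first value.

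AQP1 also had large fold changes in groups where its level was low. In T and NK-like cells it was 0.574, 1.24 and 0.497 CPM in controls and 3.44, 3.11 and 10.3 CPM in asthma libraries, with a log2 fold change of 2.78 ± 0.63 (SE, adjusted p = 0.397 by edgeR, 0% of 10483 genes called, 711 at an unadjusted p under 0.05, and 23 higher and 52 lower by DESeq2). In fibroblast-like cells it was 7.83, 5.14 and 2.16 CPM in controls and 25.9, 44.3 and 19.5 CPM in asthma libraries, with a log2 fold change of 2.56 ± 0.56 (adjusted p = 0.0888, 0.583% of genes called). In macrophage-like cells it had 1.89 ± 0.56 (adjusted p = 0.843) and in the other stromal cells 0.98 ± 0.40 (adjusted p = 0.402). DESeq2 gave adjusted p values of 0.0110 in T and NK-like and of 0.0463 in fibroblast-like cells. Genes of other cells were also found there. In T and NK-like cells RAMP3, a capillary EC marker, was 0.143, 0 and 0.124 CPM in controls and 1.43, 0.739 and 5.43 CPM in asthma libraries, and SFTPC, the surfactant protein of AT2 cells, was 563 CPM in asthma replicate 11 and between 15.03 and 266 CPM in the other 5. In fibroblast-like cells RAMP3 was 0, 60.0 and 4.32 CPM in controls and 10.1, 30.5 and 26.8 CPM in asthma libraries. In macrophage-like cells RAMP3 was 0.0564, 0.512 and 0.154 CPM in controls and 0.460, 0.665 and 3.74 CPM in asthma libraries. The RAMP3 groups overlapped in both, and in fibroblast-like cells a control library was highest. The part of RNA from other cells in the AQP1 values was not tested.

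**Figure D5:**
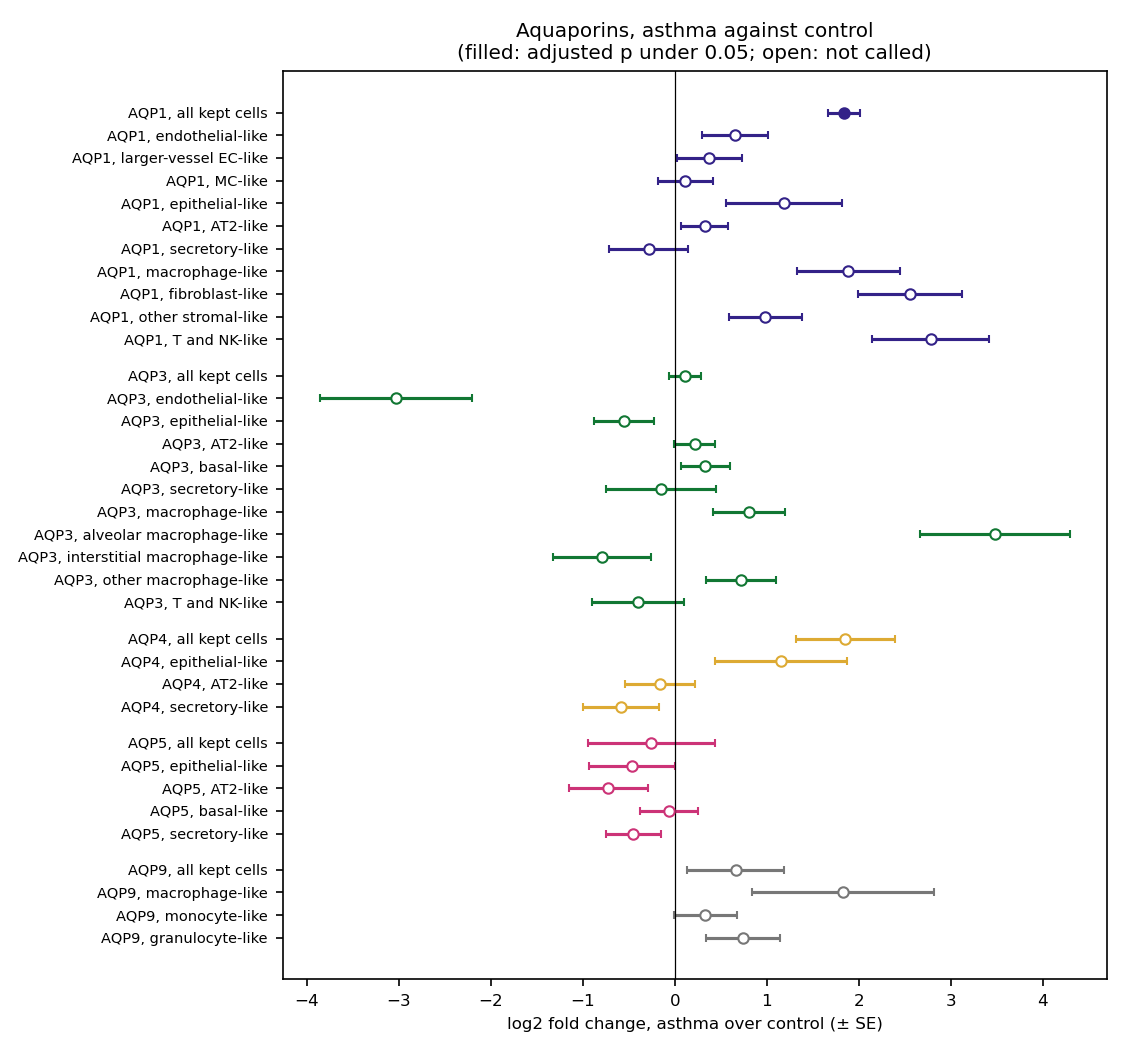
Log2 fold change of asthma over control with its SE for each aquaporin over all kept cells and in each cell group where it was tested (edgeR quasi-likelihood test, filled circles at an adjusted p under 0.05). The only filled circle is AQP1 over all kept cells at 1.84, and AQP1 in endothelial-like and MC-like cells lies at 0.65 and 0.11.

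Other genes of water and ion transport were read from the same fits. Of the 9 other aquaporin genes searched for, 7 were listed, and AQP11, with 98 UMIs in kept cells, was the most abundant, followed by AQP6 with 52, AQP7 with 39 and AQP8 with 25, whereas AQP2, AQP10 and MIP had 1, 3 and 4. In endothelial-like cells 11 of 28 genes of alveolar and airway ion transport could be tested and 1 was up-regulated, CA4, a carbonic anhydrase on the surface of capillary endothelium that is also among the capillary EC markers, with a log2 fold change of 4.74 ± 0.71 (adjusted p = 0.0135, edgeR). The list had a median log2 fold change of 0.081 beside 0.0098 over all 7837 genes tested. Of 14 genes of glycerol and osmolyte handling 8 were tested and 2 were up-regulated, namely AKR1B1, the aldose reductase that makes sorbitol, with 1.61 ± 0.38 (adjusted p = 0.0408), and LRRC8A, a subunit of the volume-regulated anion channel, with 1.37 ± 0.30 (adjusted p = 0.0317). AKR1B1 was also among the leading genes of the 62 other EC-like cells led by TMEM88, and other EC-like cells numbered 4, 0 and 3 in controls and 71, 61 and 181 in asthma libraries. The part of the mix of subtypes in these values was not tested. The median of this list was -0.46, and 2 of its 8 genes lay above 0, beside 184 of 7837 genes called higher in these cells. In fits without 1 library, added after the data were seen, CA4 kept its call in 5 of 6 (adjusted p = 0.0592 without control replicate 3), and AKR1B1 and LRRC8A in 1 of 6, without asthma replicate 8. Their adjusted p otherwise lay between 0.0725 and 0.126 for AKR1B1 and between 0.0654 and 0.121 for LRRC8A. Of 8 genes for proteins that anchor AQP4, 3 were tested in endothelial-like and 4 in epithelial-like cells and none was called. In epithelial-like cells 16 genes of ion transport were tested with a median of 0.30 and none called, beside -0.014 over all genes. Over all kept cells, 23 were tested with a median of 0.48 and none called, 8 of them at an unadjusted p under 0.05, beside a median of -0.015 and 1845 of 14306 genes at such a p. In other stromal cells 9 genes of ion transport were tested and 2 were up-regulated, beside 15 genes called higher and 16 lower of 7150. In fibroblast-like cells 7 were tested and 1 was up-regulated, beside 18 genes called higher and 21 lower of 6694.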

How the data were processed

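Per the labels and the methods, the authors aligned reads to macFas6. The deposited values are raw counts of UMIs for each gene in each barcode. Cell Ranger 4.0.0 is named in the file headers and 2.1.1 in the submitters' processing notes, while the study's methods name a further version, so which one made the files is unclear. A cell was kept if it had between 500 and 5000 genes (both excluded), 500 UMIs or more and a mitochondrial share, over 37 genes, that did not exceed 25%. Cells were scaled to 10000 counts, and 2000 variable genes without the aquaporins, 10 principal components, 20 neighbours and Leiden clustering at resolution 0.8 were used (scanpy 1.11.5, leidenalg 0.10.2, Python 3.11.15). Clusters were named from marker lists without aquaporins. A name needed at least 3 markers, and doublets were scored but kept.

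Counts were summed per library and cell group (at least 10 cells, at least 2 libraries per condition) and tested with the edgeR 4.0.16 quasi-likelihood test (R 4.3.3, TMM, filterByExpr). Genes were called at a Benjamini-Hochberg adjusted p under 0.05 over all genes tested and an absolute log2 fold change over 0.25. The fit was also run on simulated data, and the outcome is not reported here. The study tested cells by the Wilcoxon test, and libraries were used here because cells of 1 monkey are not replicates. Shares of cells were compared by an exact permutation test over 20 assignments. The text names every aquaporin in every group tested, the genes of the other lists that were called where an aquaporin was highest, and the 5 genes most alike each aquaporin (symbol, at least 200 UMIs), except for items that are not reported here. The alternatives comprised a mitochondrial limit of 10%, a minimum of 200 genes with no upper limit, removal of doublets (0.8% per 1000 cells), resolution 1.6, aquaporins among the variable genes, DESeq2 1.42.0, no filter on low counts, all deposited barcodes, thinning to 1000 UMIs and each library left out. After the data were seen, fits without each library for the called genes of the other lists and of AQP3 without the macrophage sub-cluster it leads were added. The genes and lists were chosen with earlier results of these data known. Sequences are not shown, and the authors' cell annotation was not used here. Depth per library stands with the first results, and a count of 0 was taken to allow 3 counts.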

Additional observations from a re-analysis of the deposited data

Results flagged for a closer look

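AQP1 was also higher in asthma in the barcodes that quality control left out, which the comparisons with the filters used do not contain. It was 34.5, 38.5 and 82.5 CPM there in control replicates 1, 2 and 3 and 305, 403 and 151 CPM in asthma replicates 8, 10 and 11, so the lowest asthma library, at 151 CPM, lay above every control. The same held for AQP1 in the cells of mixed sub-clusters, with 150 CPM in the lowest asthma library (149.8) against 97.3 CPM in the highest control, and in cells without a name, with 4.67 CPM against 1.63 CPM. AQP9 in the barcodes left out was 0.663, 1.04 and 2.09 CPM in controls and 6.27, 2.19 and 3.59 CPM in asthma libraries, from 4, 9 and 10 UMIs against 69, 20 and 13. The groups overlapped for AQP3, AQP4 and AQP5 in each of these sets, and for AQP9 in mixed cells and in cells without a name. The share of all genes whose groups do not overlap there is not given here. With 3 against 3 libraries an exact permutation test cannot go below p = 0.1.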

How the results depend on the processing

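The 35 fold changes of the aquaporins were computed again in 423 fits, of which 386 kept their direction and their side of the threshold, 23 turned in direction, 8 passed the threshold and 6 lost the call, all 6 for AQP1 over all kept cells. That call was lost in 5 of the 6 fits without 1 library (log2 fold change 1.73 to 2.03, adjusted p 0.0460 to 0.158) and with at least 200 genes and no maximum (2.01, adjusted p = 0.0596). The number of aquaporins called over all kept cells was 1, and 0 with at least 200 genes, 2 with DESeq2 (AQP4 with 1.86) and 0 to 1 without 1 library. Within cell groups it was 0, and 2 with DESeq2 (AQP1 in T and NK-like and in fibroblast-like cells), 5 without the filter on low counts (among them AQP3 in endothelial-like cells, -2.98) and 0 to 1 without 1 library (the 1 was AQP3 in endothelial-like cells without control replicate 2). Of all genes, DESeq2 called 23 higher and 52 lower of 10483 in T and NK-like cells and 34 and 44 of 6694 in fibroblast-like cells. Without the filter 507 were called higher and 526 lower of 15202 in endothelial-like cells. Turned directions, none of them called, were AQP1 in MC-like cells (-0.13 to 0.46 without 1 library), AQP9 in monocyte-like cells (-0.17 at resolution 1.6), AQP4 in AT2-like cells (0.032 at 10% mitochondrial share, -0.64 to 0.21 without 1 library), AQP5 in basal-like cells (0.18 with at least 200 genes, -0.41 to 0.15 without 1 library), AQP3 in interstitial macrophage-like cells (0.60 without doublets, 0.59 with aquaporins among the variable genes), AQP1 in secretory-like cells (0.30 at 10% mitochondrial share, 0.19 at resolution 1.6, -0.86 to 0.14 without 1 library), AQP3 in secretory-like cells (0.81 without doublets, 0.70 with aquaporins among the variable genes, -0.79 to 2.05 without 1 library), and over all kept cells AQP3 (-0.049 over all deposited barcodes, -0.093 with at least 200 genes, -0.046 to 0.25 without 1 library) and AQP5 (-0.75 to 0.20 without 1 library). The cause was not tested. Where leaving out a library left 1 in an arm, that library was assumed to vary like the others.

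Genes called over all kept cells were 12, and 647 with DESeq2, 45 without the filter, 7 with at least 200 genes, 6 over all barcodes and 0 to 11 without 1 library. In endothelial-like cells they were 405, and 1033 without the filter and 31 to 394 without 1 library. Thinning to 1000 UMIs moved the shares of cells with a UMI of AQP1 to 71.1% in endothelial-like, 61.5% in MC-like and 81.2% in AT1-like cells, of AQP3 in basal-like cells to 53.9%, of AQP4 in AT1-like cells to 66.0%, of AQP5 in secretory-like cells to 55.3% and of AQP9 in monocyte-like cells to 1.71%. The level of AQP9 in monocyte-like cells moved to 12.3 CPM at resolution 1.6. The share of AQP3 UMIs in macrophage-like cells moved from 38.7% to 22.2% without doublets and to 21.2% at resolution 1.6, and that of AQP5 UMIs in secretory-like cells from 38.0% to 2.71% with at least 200 genes, where 41.9% lay in epithelial-like cells without a subtype name. No paired analysis was possible because the groups share no replicate numbers.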
